A study of Sus scrofa with 9 samples.

Results

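Complement components, coagulation factors, serpins and the related inhibitors and proteases were measured in boar testis, as the genes of a porcine oligonucleotide microarray whose names follow the standard symbols of these families (C1Q, C1R, C1S, C2 to C9, CFB to CFP, F followed by digits, FGA to FGG, SERPIN, A2M, PLAU, PLAT, PROC, PROS1, CLU and KLK). The rule used names and no measured value. It took 60 of the 49795 gene names on the array, represented by 133 of its 60889 probes. For 44 of these genes the authors' table of log2 values held a probe, and the probe with the highest mean there stands for the gene. Of these, 43 could be tested in at least 1 comparison. The other 16 genes (A2ML1, C1QTNF3, C1QTNF7, C7, C8A, C8B, F5, F7, F9, KLK1, PROC, SERPINA7, SERPINB5, SERPINB7, SERPINB11 and SERPIND1) had no listed probe, and each of their probes was well above background on 0 to 3 of the 9 arrays. One of the 44, F23029, is the accession of a cDNA clone that the name rule caught by its form, and it is counted with the members but is not a factor.

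The study asked how a balanced reciprocal translocation changes gene expression in the testis of an infertile boar. RNA from testicular biopsies was labelled with cyanine 3 and hybridized to single-colour 60K arrays, 3 arrays per group. The t(1;14) group came from 1 severely oligoasthenoteratospermic Landrace and Duroc crossbred boar that carries the translocation between chromosomes 1 and 14. The oligospermic group came from 1 infertile boar with a normal karyotype (2n=38,XY), and the controls were fertile boars with normal semen, where the sources used here do not state which boar is on which array. Within a group the arrays hold RNA of different biopsies or extractions, and the ages of the boars are not given in the sources used here. The tests therefore compare arrays and not populations of boars, and the spread behind their p-values may be technical. The 3 groups were balanced over 3 slides, with 1 array of each on a slide. Between 37087 and 40632 probes per array were well above background, and no member was saturated on any array. Of the 44 chosen probes, 34 were well above background on all 9 arrays.

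Complement is a cascade of plasma proteases and binding proteins: the C1 complex opens the classical pathway, C4 and C2 carry it on to C3, factor B and properdin build the alternative C3 convertase, and C5 to C9 assemble the membrane attack complex. Coagulation and fibrinolysis run through related serine protease cascades, and the serpins are inhibitors that trap such proteases irreversibly, although several of them carry hormones or chaperone collagen instead. Most of these proteins are made by the liver and circulate, but the testis makes its own alpha-2-macroglobulin, clusterin and protease inhibitors, and germ cells behind the Sertoli cell barrier are shielded from complement by membrane regulators.

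The 60-base probes below are the measured sequences behind the largest and the most contrasting differences, printed as designed on the array, 5′ to 3′, in lower case throughout. The probes of A2M, F12 and C1QC are single probes of their genes. Both C3 probes are shown because they lie in different stretches of the transcript and gave nearly the same difference. The C6 and SERPINA1 probes are the second probes of their genes, shown because they gave the same pattern as the chosen ones. The SERPINA3-3 probes are shown because they are 2 of 3 probes of a gene that has close relatives. The F8 probe is the chosen probe of a gene whose other probe differed.

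A2M: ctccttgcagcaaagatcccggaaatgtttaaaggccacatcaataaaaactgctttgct
F12: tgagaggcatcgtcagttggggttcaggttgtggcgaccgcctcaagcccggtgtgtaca
C1QC: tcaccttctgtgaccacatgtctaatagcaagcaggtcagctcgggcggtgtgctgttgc
C3, chosen probe: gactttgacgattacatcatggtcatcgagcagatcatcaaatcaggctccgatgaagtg
C3, weakest probe: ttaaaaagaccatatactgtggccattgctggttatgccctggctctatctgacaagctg
C6, second probe: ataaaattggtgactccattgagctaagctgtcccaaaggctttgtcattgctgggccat
SERPINA1, second probe: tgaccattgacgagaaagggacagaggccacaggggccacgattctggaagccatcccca
SERPINA3-3, chosen probe: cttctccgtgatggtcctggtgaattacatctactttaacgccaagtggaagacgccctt
SERPINA3-3, second probe: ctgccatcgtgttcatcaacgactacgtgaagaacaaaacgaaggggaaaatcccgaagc
F8, chosen probe: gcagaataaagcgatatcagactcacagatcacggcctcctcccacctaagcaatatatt

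In the t(1;14) testis, alpha-2-macroglobulin signal was higher than in controls, while C3, C5, factor XII and the antiprotease alpha-1-antitrypsin were lower. The chosen probes of the antichymotrypsin relatives SERPINA3-2 and SERPINA3-3 were also lower, but a further probe of each was not called (-0.27 and 0.89). A probe was called differential at a limma adjusted p of at most 0.01 and at least a 4-fold change, the rule of the methods, and called 2-fold at the same adjusted p and at least a 2-fold change. Of 42 members tested between t(1;14) and control, 1 was differential and higher (A2M, 2.38%, against 1.31% of all 40643 probes tested) and 6 were differential and lower (14.3%, against 4.30% of all probes). At the 2-fold limit 4 were higher (9.52%, against 7.45% of all probes) and 10 were lower (23.8%, against 11.7% of all probes). The median log2 fold change was -0.06 over the members tested and 0.14 over all probes tested. Without t(1;14) replicate 3 the 2-fold count was 9 in place of 14. With detection required in both groups, 6 differential members were left, without SERPINA3-3. At the 2-fold limit 11 were left, without SERPINA3-3, SERPINB8 and SERPINB10.

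The oligospermic testis gave no called member. None of the 42 members tested between oligospermic and control passed either limit in limma, where 0.0730% of all 39713 probes were differential and 0.0755% were called 2-fold. At an unadjusted p under 0.05 there were 7 such members, beside 3906 of the 39713 probes. Leaving out control replicate 2 gave 1 member, C6, at both limits. The t(1;14) arrays were also set against the oligospermic arrays, a comparison that shares the t(1;14) arrays with the first one and is therefore given beside it and not as independent evidence. There, 2 of 43 members were differential and higher (4.65%, against 1.93% of all 40567 probes) and 6 were differential and lower (14%, against 4.89%). The higher ones were A2M and SERPINB8, of which SERPINB8 entered the test through the t(1;14) arrays alone and has a bound far under 4-fold, so that A2M alone was left when detection in both groups was required. Of the lower ones, C6 and SERPINA3-3 entered through the oligospermic arrays alone. With detection in both groups C3, C5, SERPINA1 and SERPINA3-2 were left. At the 2-fold limit 7 were higher (16.3%, against 11.1%) and 11 were lower (25.6%, against 13.8%). With detection in both groups 12 were left at that limit, without C1QTNF2, C6, SERPINA3-3, SERPINB8, SERPINB10 and SERPINF1. Those members had entered the test through 1 group alone, the one where they were high.

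**Figure D1:**
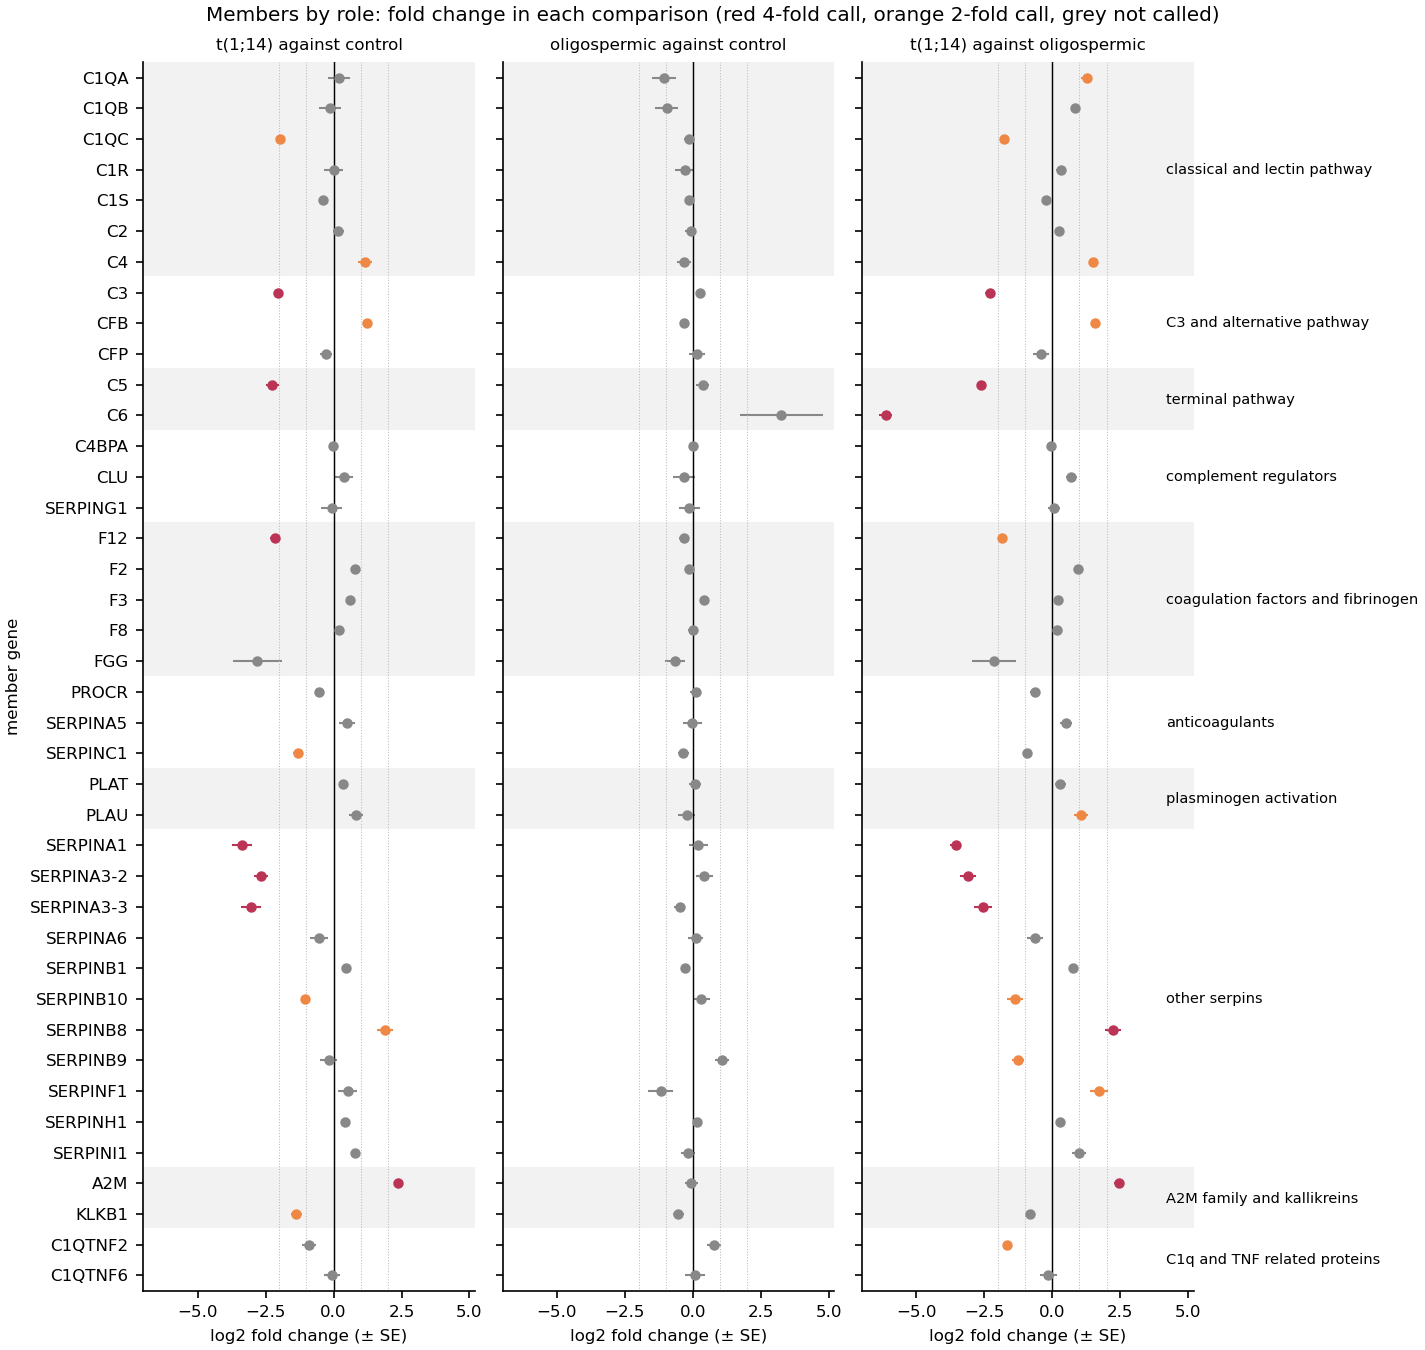
Log2 fold change of 40 members tested, grouped by role, in the 3 comparisons (one panel each), with horizontal bars for the standard error. Red points passed adjusted p 0.01 and 4-fold, orange points passed it at 2-fold and grey points were not called. In the t(1;14) panels the called members lie on both sides of 0, and the oligospermic panel has grey points alone.

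Markers of some cell types also differed between the groups, and these shifts accompany every t(1;14) difference given below. Of 7 spermatid markers tested, 4 were differential and lower in t(1;14) than in control (ACRV1, AKAP4, ODF2 and TSSK2, log2 fold changes -2.40, -2.27, -2.36 and -2.55), and the log2 of the summed spermatid signal lay between 16.70 and 16.83 in t(1;14) and between 17.70 and 17.91 in control and 17.75 and 17.88 in oligospermic. PRM2, a large part of that sum, was saturated on all control and oligospermic arrays and on 1 t(1;14) array, and TNP2 was saturated on 1 control and 3 oligospermic arrays, so the sums carry no exact difference. Of 7 Leydig cell markers, 4 were differential and higher (STAR 3.72, LHCGR 2.73, CYP11A1 2.57, CYP17A1 2.39), with a summed log2 signal of 16.91 to 17.01 in t(1;14), 15.91 to 15.98 in control and 15.58 to 15.99 in oligospermic. INSL3, a large part of that sum, was saturated on 2 t(1;14) arrays and 1 oligospermic array. Of all probes, 4.30% were differential and lower and 1.31% differential and higher. At the 2-fold limit, which the marker counts that follow use, 11.7% of all probes were lower and 7.45% higher. Marker counts as small as those that follow cannot be set apart from these shares. Of 7 Sertoli markers 1 was called 2-fold lower and 0 higher (median 0.15). Of 7 peritubular and endothelial markers 1 was called in each direction (median 0.99). Of 3 spermatocyte markers 1 was called lower (median 0.19), and of 4 spermatogonium markers 0 were called (median 0.34). In a bulk biopsy, fewer cells of a type and less RNA per cell cannot be told apart. Whether these shifts take part in the differences of the members was not tested.

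Markers of cells that could bring plasma proteins or complement into a biopsy were also measured. Of the 14 macrophage and leukocyte markers 10 were on the array and 5 were listed, and 1 of those (CD14, 1.30) was called 2-fold higher in t(1;14) than in control. The summed log2 signal of the 5, mostly MRC1, was 10.33 to 10.60 in t(1;14), 9.84 to 10.33 in control and 10.09 to 10.51 in oligospermic. The lymphocyte markers CD2, CD3D, CD3E and MS4A1 were not well above background on any array. Of 6 hepatocyte markers tested, APOA1 was higher (1.02), TF was lower (-1.74) and CYP2E1 was lower (-2.26), and albumin itself had a mean log2 signal of 5.10 in control, 4.41 in oligospermic and 4.52 in t(1;14). The summed hepatocyte signal was 13.49 on every t(1;14) array, 12.27 to 12.81 in control and 11.68 to 12.06 in oligospermic, and it is mostly APOA1, while the list's median log2 fold change against control was -0.25. Of blood cells and platelets, 2 of 9 markers were tested and neither was called, with sums of 8.92 to 8.96 in t(1;14), 8.96 to 9.03 in control and 9.02 to 9.31 in oligospermic. PPBP was not well above background anywhere, and HBB was well above background on 7 arrays but had no listed probe. Against control, 7.45% of all probes were called 2-fold higher and 11.7% lower. The few markers called here cannot be set apart from those shares. The part of these cells in the members' differences was not tested.

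Of the classical pathway, 7 members were measured, and they did not move as one. C1QC encodes the C chain of C1q, the recognition unit of the pathway. Its log2 signal was 8.63, 8.54 and 8.50 on the control arrays, 8.29, 8.24 and 8.65 on the oligospermic arrays and 6.60, 6.75 and 6.47 on the t(1;14) arrays. All t(1;14) arrays were below every other array, and C1QC was 3.86-fold lower than in control (log2 fold change -1.95 ± 0.12 SE, n = 3 per group, limma adjusted p = 0.00014) and 3.46-fold lower than in oligospermic (adjusted p = 0.00011). C1QA and C1QB, which encode the other chains of the same protein and lie with C1QC on chromosome 6, did not share this. C1QA was 5.18, 4.33 and 5.98 in control, 4.51, 3.72 and 4.06 in oligospermic and 5.27, 5.51 and 5.32 in t(1;14). Its t(1;14) values lay inside the control range (0.20, adjusted p = 0.69) and above the oligospermic range, where it was called 2.41-fold higher (1.27 ± 0.21 SE, adjusted p = 0.0021). C1QB differed from control by -0.13 (adjusted p = 0.81) and from oligospermic by 0.84 (adjusted p = 0.0014), under the 2-fold limit. Each of C1QA and C1QC rests on 1 probe, so the contrast between the chains compares differences of single probes. A further spot that shares 58 bases with the C1QA probe gave -0.06 against control. Against oligospermic it gave 0.98 (limma adjusted p = 0.00067), just under the 2-fold limit and not called.

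C4, the component that the C1 complex cleaves next, had log2 signals of 10.60, 11.32 and 11.56 in control, 10.80, 10.94 and 10.79 in oligospermic and 12.33, 12.31 and 12.32 in t(1;14). The t(1;14) arrays stood above all others, and within 0.01 (SD) of each other, whereas the controls spread by 0.50 (SD). C4 was called 2.23-fold higher than in control (1.16 ± 0.25 SE, adjusted p = 0.0098), a call at the edge of the limit that 9 of 16 alternative settings lost, slide as a block among them, with log2 fold changes between 0.88 and 1.36. Against oligospermic it was 2.79-fold higher (1.48 ± 0.09 SE, adjusted p = 3.8e-05), and all 16 alternatives kept that call. A second C4 probe gave 0.76 (adjusted p = 0.0082) and 1.01 (adjusted p = 0.0005). C1R and C1S, the proteases of the C1 complex, differed from control by 0.01 and -0.38, and C2, the partner of C4 in the convertase, by 0.18. None of these 3 was called in any comparison.

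C3, on which all complement pathways converge, was lower in the t(1;14) testis. The log2 signal of the chosen probe was 9.30, 9.45 and 9.57 in control, 9.57, 9.57 and 9.96 in oligospermic and 7.43, 7.57 and 7.18 in t(1;14). No t(1;14) array came near the others, and the fall was 4.13-fold against control (-2.04 ± 0.15 SE, adjusted p = 0.00019) and 4.95-fold against oligospermic (-2.31 ± 0.16 SE, adjusted p = 6.1e-05). On the 3 slides the t(1;14) array was below the control array by differences of -1.73, -2.27 and -2.14. All 5 C3 probes were lower than in control by between -2.14 and -1.99, so the chosen probe lies near the middle of its gene's probes. The weakest probe, whose sequence is given above, had the smallest of these differences (-1.99, adjusted p = 0.00012), just short of the 4-fold limit.

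The protease that joins C3 in the alternative convertase went the other way. CFB, complement factor B, was 4.81, 4.41 and 4.61 in control, 4.43, 4.33 and 4.14 in oligospermic and 5.84, 5.85 and 5.87 in t(1;14). The t(1;14) arrays lay above every other array, and CFB was 2.37-fold higher than in control (1.24 ± 0.14 SE, adjusted p = 0.00075) and 2.94-fold higher than in oligospermic (1.55 ± 0.10 SE, adjusted p = 5.5e-05). CFP, properdin, which stabilises that convertase, differed by -0.27 and -0.41 and was not called (adjusted p = 0.36 and 0.24).

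In the terminal pathway 2 of the 5 genes named on the array had a listed probe. C5 starts the membrane attack complex when it is cleaved. Its log2 signal was 10.14, 11.01 and 10.45 in control, 11.10, 10.75 and 10.85 in oligospermic and 8.38, 8.20 and 8.27 in t(1;14). The groups were apart by more than the spread of the controls, and C5 was 4.75-fold lower than in control (-2.25 ± 0.23 SE, adjusted p = 0.00058) and 6.14-fold lower than in oligospermic (-2.62 ± 0.12 SE, adjusted p = 2.1e-05). The other C5 probe was also lower, by less (-1.59, adjusted p = 0.0032).

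C6, which joins C5b in the complex, was the member that split the arrays within a group. Its log2 signal was 8.04, 7.81 and 8.16 on the oligospermic arrays and 1.98, 1.38 and 2.30 on the t(1;14) arrays, none of which was well above background. The controls gave 2.66, 8.64 and 2.94, so control replicate 2 alone was well above background and sat with the oligospermic arrays. C6 was therefore at least 21.1-fold higher in oligospermic than in t(1;14) (fitted difference -6.12 ± 0.24 SE, adjusted p = 1.9e-05), a lower bound because the t(1;14) signal is only known to be under the lowest signal well above background. C6 entered this test only through the oligospermic arrays, where it was high, so the call carries little beyond this bound. Against control the difference could not be tested for t(1;14), since too few arrays passed the filter, and no fold is given because control replicates 1 and 3 were not well above background either. Between oligospermic and control it was 3.25 ± 1.53 SE with an adjusted p of 0.56, and leaving out control replicate 2 made C6 a called member there.

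The second C6 probe, printed above, showed the same split with 1.50, 6.99 and 1.45 in control, 6.31, 5.92 and 6.43 in oligospermic and 1.47, 1.39 and 1.55 in t(1;14), and it was at least 6.11-fold higher in oligospermic than in t(1;14) (adjusted p = 1.8e-05). A second spot on the array whose sequence shares 60 bases with the chosen C6 probe, and one that shares 56 bases with the second probe, repeated it. The third C6 probe was not well above background on any array. C6 is on chromosome 16, and the control animals are the ones whose assignment to arrays is not stated.

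**Figure D2:**
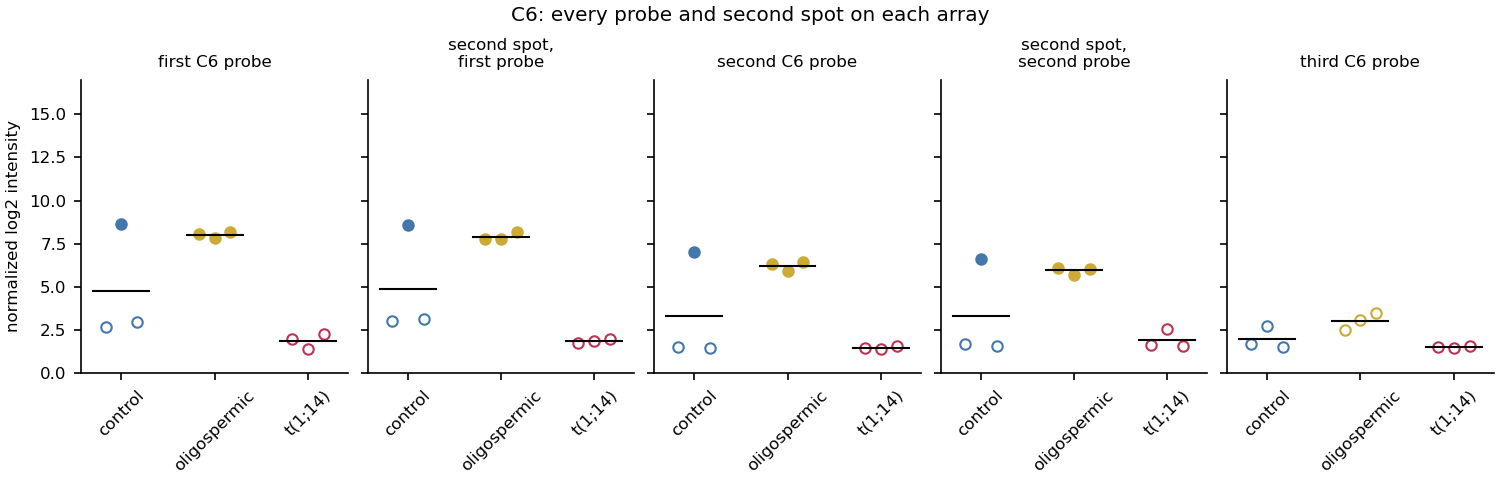
Log2 signal of the 3 C6 probes and of the 2 further spots that share their sequence, on the 9 arrays by group. Filled points were well above background and open points were not, and the bar is the group mean. Control replicate 2 is the 1 control array that lies with the oligospermic arrays, and the t(1;14) points are all open.

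None of the 4 complement regulators measured was called in any comparison with its chosen probe. Of all probes, 7.45% were called 2-fold higher and 11.7% lower against control, and 11.1% and 13.8% against oligospermic. So few members cannot be set apart from those shares. CLU, clusterin, a major secreted protein of Sertoli cells that also blocks the terminal complex, was 15.49, 14.08 and 15.22 in control, 14.92, 14.72 and 14.17 in oligospermic and 15.38, 15.32 and 15.20 in t(1;14). Its t(1;14) arrays lay within the control range (0.37 ± 0.36 SE, adjusted p = 0.43). SERPING1, the C1 inhibitor, differed by -0.07 from control and by 0.07 from oligospermic.

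C4BPA, the alpha chain of the C4b-binding protein, depended on the probe. The chosen probe read 9.10, 9.11 and 9.08 as group means and differed by -0.02 from control. Of the other 5 probes, 3 were called 2-fold higher in t(1;14) than in oligospermic (1.39, 1.15 and 1.45, adjusted p = 0.00071, 0.0009 and 0.00099), and none was called against control, where they gave -0.11 to 0.75. The count of members called holds the chosen probe alone.

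Of the coagulation factors, F12 stood apart. Factor XII is the contact-activated protease that starts the intrinsic pathway. Its log2 signal was 11.64, 11.09 and 11.28 in control, 11.10, 10.82 and 11.14 in oligospermic and 9.35, 9.07 and 9.10 in t(1;14). Every t(1;14) array was lower than every other array, and F12 was 4.49-fold lower than in control (-2.17 ± 0.18 SE, adjusted p = 0.00027) and 3.59-fold lower than in oligospermic (-1.84 ± 0.13 SE, adjusted p = 6.9e-05), so that it passed the 4-fold limit in the first comparison and the 2-fold limit in the second. KLKB1, plasma prekallikrein, which activates factor XII and is activated by it, was 6.44, 7.01 and 6.25 in control, 6.0, 5.98 and 6.11 in oligospermic and 5.15, 5.30 and 5.14 in t(1;14). It was called 2.59-fold lower than in control (-1.37 ± 0.21 SE, adjusted p = 0.0028), a second KLKB1 probe gave -1.37 (adjusted p = 0.0024), and against oligospermic the difference of -0.83 stayed under the 2-fold limit.

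The other factors were not called. F2, prothrombin, was higher by 0.79 in t(1;14) than in control (adjusted p = 0.0062) and F3, tissue factor, by 0.60 (adjusted p = 0.014), both less than 2-fold. FGG, the fibrinogen gamma chain, read 6.71, 5.28 and 5.40 in control and 5.04, 2.21 and 1.74 in t(1;14), where 1 array was well above background. Its large difference (-2.80 ± 0.90 SE) came with a wide spread, and it missed the limit (adjusted p = 0.041). FGG entered its tests against control and against oligospermic through the other group alone. Without t(1;14) replicate 1, the array with the 5.04, no t(1;14) array was well above background. FGG was then called at the 4-fold limit against both groups, but the size of that fall rests on undetected signal. F8, factor VIII, differed by 0.19 with its chosen probe (adjusted p = 0.25), whereas the other F8 probe was lower by -1.46 against control (adjusted p = 0.0041) and by -1.62 against oligospermic (adjusted p = 0.00014). F23029 differed by 0.10.

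Of the anticoagulants, SERPINC1, antithrombin, the inhibitor of thrombin and factor Xa, was called. Its log2 signal was 8.59, 8.58 and 9.22 in control, 8.49, 8.33 and 8.48 in oligospermic and 7.50, 7.44 and 7.53 in t(1;14). The t(1;14) arrays lay below all others, by 2.48-fold against control (-1.31 ± 0.20 SE, adjusted p = 0.0026) and by -0.95 on the log2 scale against oligospermic (adjusted p = 0.00022, short of 2-fold). The call against control was lost in 4 of 16 alternatives, namely the replicate block and leaving out any 1 of the t(1;14) arrays. The other SERPINC1 probes were lower than in control by -1.64 and -2.72, the latter at least 1.95-fold because no t(1;14) array was well above background. PROCR, the endothelial protein C receptor, differed by -0.54 (adjusted p = 0.028), and SERPINA5, the protein C inhibitor, which is abundant in the male reproductive tract, had mean log2 signals of 13.04, 13.02 and 13.53 and was not called.

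Plasminogen activation showed 1 call in 3 members, against oligospermic, where 11.1% of all probes were called 2-fold higher and 13.8% lower. PLAU, urokinase, was 4.78, 4.72 and 5.60 in control, 5.28, 4.79 and 4.32 in oligospermic and 5.64, 6.0 and 5.90 in t(1;14). It was called 2.07-fold higher in t(1;14) than in oligospermic (1.05 ± 0.25 SE, adjusted p = 0.0096), a call that 9 of 16 alternatives lost, and against control the difference of 0.81 was not called (adjusted p = 0.039). PLAT, tissue plasminogen activator, differed from control by 0.37 with 1 of its 6 probes chosen, and the other 4 tested gave 0.35 to 0.40.

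Among the called members, the highest rise against control was that of A2M. A2M, a broad protease trap that Sertoli cells secrete, had log2 signals of 13.13, 12.74 and 12.56 in control, 13.04, 12.86 and 12.33 in oligospermic and 15.11, 15.24 and 15.24 in t(1;14). The t(1;14) arrays stood clear of both other groups, and A2M was 5.22-fold higher than in control (2.38 ± 0.17 SE, adjusted p = 0.00018) and 5.46-fold higher than in oligospermic (2.45 ± 0.19 SE, adjusted p = 9.2e-05). On the slides the t(1;14) array exceeded the control array by 2.10, 2.50 and 2.55. A2M has 1 probe here, and its fold change stayed between 2.27 and 2.55 on the log2 scale in all 16 alternatives against control.

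SERPINA1, alpha-1-antitrypsin, the inhibitor of neutrophil elastase, had the greatest fall of the 42 members tested against control. The control arrays read 8.93, 9.10 and 7.84 on the log2 scale, the oligospermic arrays 8.62, 8.79 and 9.06 and the t(1;14) arrays 5.34, 5.57 and 4.89. Despite the spread of the controls the groups did not overlap, and SERPINA1 was 10.2-fold lower than in control (-3.35 ± 0.36 SE, adjusted p = 0.00075) and 11.8-fold lower than in oligospermic (-3.56 ± 0.20 SE, adjusted p = 3.2e-05). The within-slide differences from control were -3.36, -4.21 and -2.50. The second probe, printed above, was lower by -2.70 (adjusted p = 0.0027) and -2.87 (adjusted p = 0.00019).

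The porcine SERPINA3 genes, relatives of alpha-1-antichymotrypsin, are similar in sequence, so a probe may also read a relative. SERPINA3-2 was 7.46, 8.02 and 7.34 in control, 7.41, 8.20 and 8.47 in oligospermic and 5.25, 4.54 and 4.98 in t(1;14). The chosen probe was 6.41-fold lower than in control (-2.68 ± 0.25 SE, adjusted p = 0.00045) and 8.57-fold lower than in oligospermic (adjusted p = 0.00026), while the other probe of the gene, matched to a liver cDNA, gave -0.27 (adjusted p = 0.53). SERPINA3-3 was 6.49, 6.34 and 5.87 in control, 5.61, 5.76 and 5.87 in oligospermic and 3.50, 2.41 and 3.71 in t(1;14), where 1 array was well above background. Both groups lay above the t(1;14) arrays, by 8.14-fold (-3.03 ± 0.37 SE, adjusted p = 0.0012) and 5.81-fold (-2.54 ± 0.34 SE, adjusted p = 0.00084). These folds lean on 2 dim t(1;14) arrays, and the normexp background correction gave -0.95 and -0.69 without a call. In both comparisons SERPINA3-3 passed the filter only through the other group, where it was high. The second SERPINA3-3 probe was at least 2.35-fold lower than in control (fitted -3.11, adjusted p = 0.00046), and the third, also a liver cDNA sequence, read 0.89 in the opposite direction without a call (adjusted p = 0.011).

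**Figure D3:**
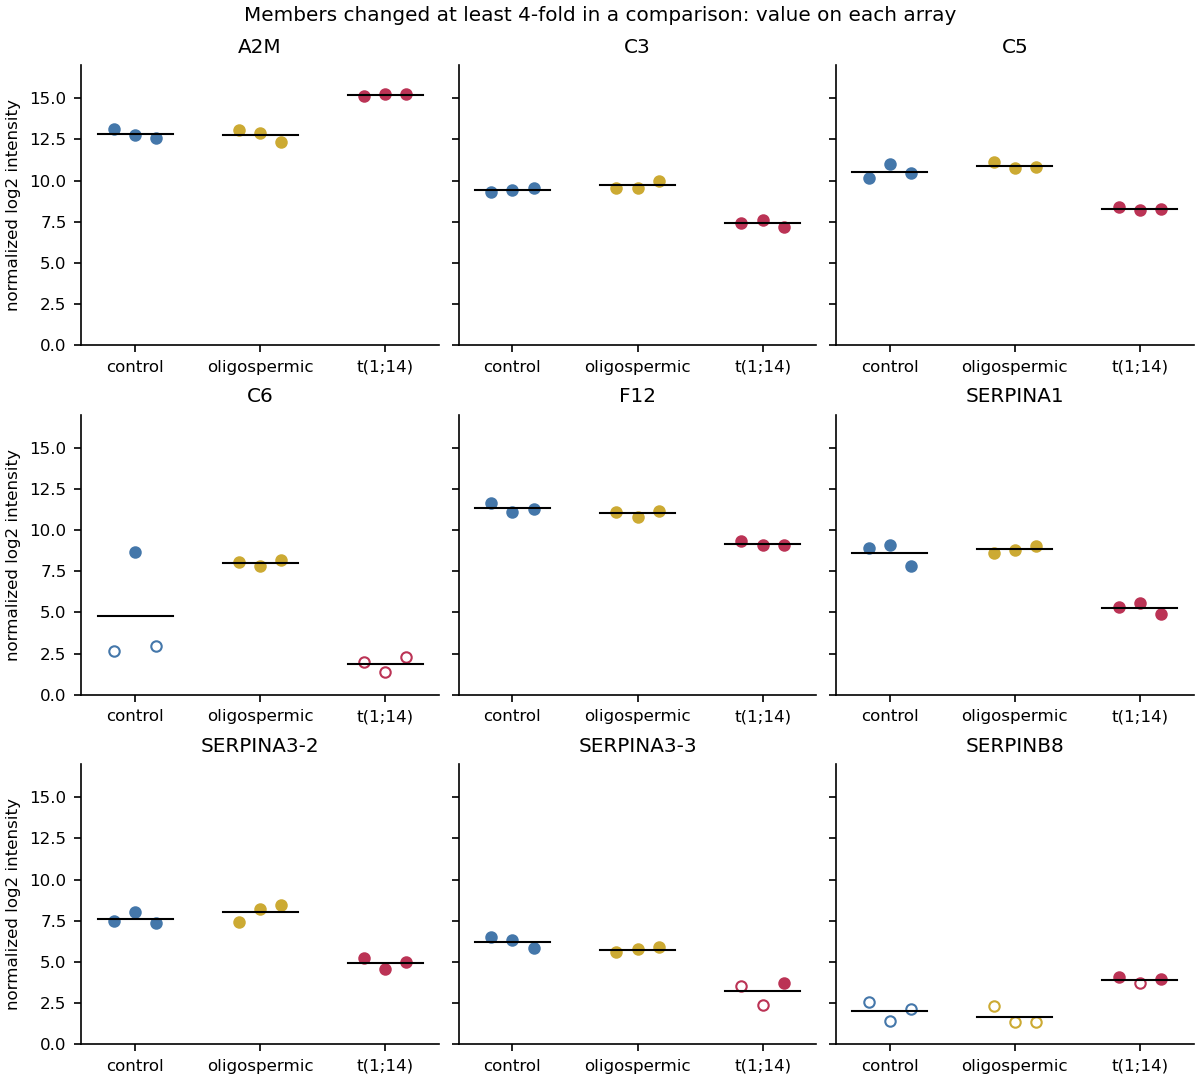
Log2 signal on the 9 arrays of the 9 members that passed the 4-fold limit in at least 1 comparison, by group, with bars for the group means. Filled points were well above background and open points were not. A2M and SERPINB8 are higher and the other 7 are lower in t(1;14) than in oligospermic, with C6 split within the controls.

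Clade B serpins mostly act inside cells, and the 4 measured gave calls in both directions or none. SERPINB8, an inhibitor of furin, was 2.56, 1.41 and 2.12 in control, 2.34, 1.35 and 1.34 in oligospermic and 4.05, 3.70 and 3.98 in t(1;14), where 2 arrays were well above background and no array of the other groups was. It was at least 1.26-fold higher than in control (adjusted p = 0.0031) and at least 1.16-fold higher than in oligospermic (adjusted p = 0.00076). SERPINB8 entered these tests only through the t(1;14) arrays, where it was high, so its calls carry little beyond these bounds, and the normexp background correction gave log2 fold changes of 0.26 and 0.28 without a call. SERPINB10 was lower than in control by -1.06 ± 0.14 SE (adjusted p = 0.0014) and lower than in oligospermic by -1.37 (adjusted p = 0.0062). It was well above background on 1 t(1;14) array and entered both tests through the other group alone, where it was high. Its calls were lost in 6 of 15 and 9 of 15 alternatives, with log2 fold changes as small as -0.26 and -0.37. SERPINB9, the granzyme B inhibitor, was 2.39-fold lower than in oligospermic (-1.26 ± 0.22 SE, adjusted p = 0.0028) and differed from control by -0.18. SERPINB1, an inhibitor of neutrophil proteases, differed from control by 0.48 (adjusted p = 0.028) and was not called.

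The remaining serpins include secreted and chaperone proteins. SERPINF1, the pigment epithelium-derived factor, was 5.16, 4.13 and 5.51 in control, 4.45, 3.74 and 3.05 in oligospermic and 5.36, 5.50 and 5.49 in t(1;14), and it was called 3.26-fold higher in t(1;14) than in oligospermic (1.71 ± 0.33 SE, adjusted p = 0.0042) but not against control (0.52, adjusted p = 0.25). The call is against a group with 1 array well above background, and 6 of 15 alternatives lost it, with log2 fold changes between 0.52 and 2.06. SERPINI1, neuroserpin, an inhibitor of tissue plasminogen activator, was higher than in control by 0.79 (adjusted p = 0.0023), and its 6 probes gave 0.66 to 0.98, all under 2-fold. Against oligospermic its chosen probe gave 0.97 without a call (adjusted p = 0.014), and 4 of the other 5 were called, up to 1.31. SERPINH1, the collagen chaperone of the endoplasmic reticulum, differed by 0.41 with its chosen probe (adjusted p = 0.018) and by 1.54 with a dim second probe (adjusted p = 0.0063), at least 1.99-fold. That second probe entered the test through the t(1;14) arrays alone, where it was high. SERPINA6, the cortisol-binding globulin, was not called (-0.53, adjusted p = 0.21).

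Among the genes named for a C1q-like domain but outside the cascade, C1QTNF2 had no t(1;14) array well above background and was at least 2.76-fold lower than in oligospermic (fitted -1.68 ± 0.13 SE, adjusted p = 0.0001), whereas against control the adjusted p was 0.027. C1QTNF2 entered both tests through the other group alone. C1QTNF6 differed by -0.06, and C1QTNF1 passed the filter in no comparison.

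**Figure D4:**
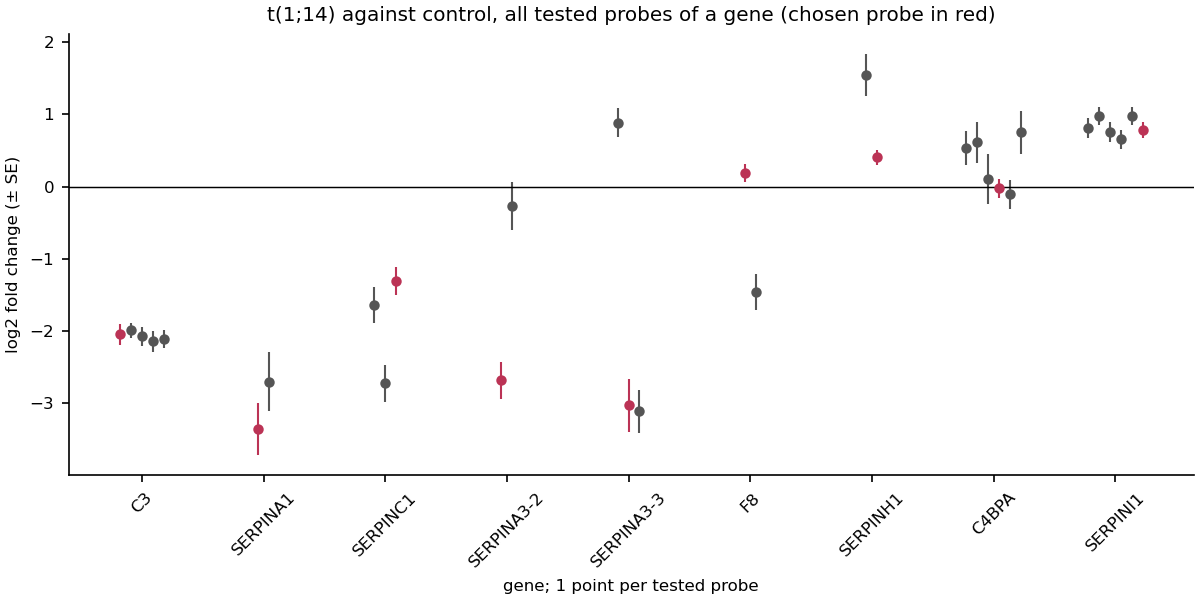
Log2 fold change between t(1;14) and control of every tested probe of 9 member genes, with the chosen probe in red. The 5 C3 probes and the 6 SERPINI1 probes fall close together, while the probes of SERPINA3-2, SERPINA3-3 and F8 lie apart.

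Several members have further spots on the array that share at least 50 of the 60 bases. Over 31 such pairs from 22 members, the log2 fold change between t(1;14) and control differed between the spots of a pair by a median of 0.08 and at most 0.64 (KLKB1). Different probes of 1 gene, which read different stretches of its transcripts, could lie further apart than repeated spots, as with F8 and the SERPINA3 genes.

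The partners of these systems were counted from fixed lists. Of 25 complement receptors, membrane regulators and lectin pathway genes, 15 were on the array and 9 were tested. CD59, the membrane regulator that blocks the last step of the attack complex, was the 1 called against control, 2-fold higher in t(1;14) (1.58 ± 0.11 SE, adjusted p = 0.00018), and the list's median log2 fold change was 0.29. Against oligospermic 3 were called higher and 1 lower, where the 2-fold shares of all probes were 11.1% and 13.8%. Against control those shares were 7.45% and 11.7%. Of 38 partners in coagulation, fibrinolysis and protease inhibition 14 were tested against control, with 2 called higher at 2-fold and 1 called lower. The small counts of both lists were not tested against the shares of all probes. PLG, plasminogen, was the lower one, at least 1.32-fold (fitted -2.40, adjusted p = 0.00032), since no t(1;14) array was well above background. PLG entered that test through the control arrays alone. S100A10, a plasminogen receptor subunit, was higher by 1.97 against control and by 2.57 against oligospermic (adjusted p = 2.4e-05).

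The translocated chromosomes held few of the members. C5, SERPINB8 and SERPINB10 are annotated on chromosome 1 in the Sscrofa11.1 assembly, with log2 fold changes against control of -2.25, 1.88 and -1.06, and CLU and PLAU are on chromosome 14, with 0.37 and 0.81. The fitted values of the 3 on chromosome 1 had both signs. The only higher one, SERPINB8, was at least 1.26-fold higher and entered the test through the t(1;14) arrays alone. SERPINB10 entered it through the control arrays alone.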

How the data were processed

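Testicular RNA was read on 9 single-colour arrays. The authors extracted the spots with Agilent Feature Extraction, and the deposited processed signal is a background-subtracted intensity that is not normalized across arrays. A deposited table also gives log2 values of 38759 probes. Its sorted columns differ by at most 0.0016, which marks quantile normalization over all arrays, and 0 columns belong to other samples. The submitters' processing notes name limma.

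Quantile normalization of the log2 processed signal over the 9 arrays was repeated here with limma 3.58.1, in R 4.3.3 with the package data.table at version 1.17.8. Probes entered a test where 2 or more of the 3 arrays in either group were well above background and carried no outlier flag. Each comparison was fitted on its own 6 arrays (lmFit, eBayes), with Benjamini-Hochberg adjustment over all probes tested. The code was tested on simulated data. Where no array of a group was well above background, a bound was taken against the higher of the array's lowest signal well above background and the probe's own signal.

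Gene names are those of the array annotation. Of the 133 probes, 129 matched 1 gene in a RefSeq table of Sscrofa11.1 (104 by accession, 25 by symbol) and 4 matched none, SERPINA3-3 among them. Chromosomes come from that table, and sequences are those of the array design. Named with values are members called 2-fold in any comparison, the 3 of highest signal in each role and those whose probes disagree. The counts hold 2 members that are not reported by name here. Members and gene lists were chosen with earlier results of these data known. Alternatives were 75th percentile scaling, normexp, other filters and fits, the deposited values, slide or replicate as a block and leaving out each array.

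Whether replicate numbers pair the samples was checked by correlating deviations from the group means. Same-numbered control and oligospermic arrays shared a slide (0.48, 0.14 and 0.10). The numbers did not pair t(1;14) with control (-0.28, -0.19 and 0.14) or with oligospermic (-0.42, -0.34 and 0.12). Arrays of the same slide did deviate together, t(1;14) with control by 0.34, 0.11 and 0.12 and with oligospermic by 0.49, 0.29 and 0.33, so slide as a block is the paired alternative there. The small number of arrays limits the precision of every value.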

Additional observations from a re-analysis of the deposited data

How the results depend on the processing

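Of the 32 calls of single members at the 2-fold limit, none reversed under any alternative that could be computed. The normexp background correction with an offset of 50 gave 4 differential members between t(1;14) and control (7 in the report) and 9 at 2-fold (14 in the report), and between t(1;14) and oligospermic 4 (8) and 9 (18). In total 14 of the 32 single calls were lost under it. Requiring detection in both groups compared gave 5 differential members between t(1;14) and oligospermic, since C6, SERPINA3-3 and SERPINB8 were no longer tested. Leaving out 1 array at a time, the t(1;14) against control counts ran from 6 to 9 (4-fold) and from 9 to 14 (2-fold, lowest without t(1;14) replicate 3), and the t(1;14) against oligospermic counts from 7 to 9 and from 14 to 19. Between oligospermic and control both counts ran from 0 to 1, the 1 being C6 without control replicate 2. With the replicate block the counts were 7 and 11 between t(1;14) and control, 0 and 0 between oligospermic and control, and 8 and 16 between t(1;14) and oligospermic. With slide as a block they were 7 and 13, 0 and 0, and 8 and 18. The slide block lost 1 single call, that of C4 against control. The 29 probes of the whole array called between oligospermic and control fell to 0 with either block. Members near the edge of detection (SERPINB8, SERPINB10, C1QTNF2, FGG and C6 in the controls) are limited by signal over background.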

Other observations

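The split of C6 within the controls was shared by few probes. Over the whole array, 15 probes were well above background on control replicate 2 and the 3 oligospermic arrays and on no other array. With a gap of at least 3 on the log2 scale between those 4 arrays and the other 5 there were 6, of which 4 were probes or further spots of C6. The other two were an unnamed expressed sequence tag (CX065115), with a gap of 9.44, and CYP1A2, a xenobiotic-metabolising cytochrome P450, with a gap of 5.86. These were picked after their values were seen and carry no test.

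SERPIND1, heparin cofactor II, was not well above background with its own probe on any array, yet a spot of the same 60 bases read 4.68, 5.04 and 4.50 on the control arrays. That spot was not called in t(1;14) against control (-0.61, adjusted p = 0.19). C1QTNF1, untested with its own probe, had a further spot of the same 60 bases that was at least 1.11-fold higher in t(1;14) than in oligospermic (fitted log2 fold change 2.27, adjusted p = 0.0022). This further spot entered its tests through the t(1;14) arrays alone, where it was high. Against control it was not called (fitted 1.505, limma adjusted p = 0.077).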
